A study of Mus musculus with 18 samples.

Results

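The genes described here are Spp1, Gpnmb, Trem2, Tyrobp, Fabp5, Lgals3, Apoe, Lpl, Cd63 and Cd9, genes known from lipid-handling macrophages of healing tissue. They were taken by name from the count table of the series. All 10 were found among its 30583 genes, and all 10 were among the 16311 genes with enough counts to be tested. Their levels were followed in the infarcted mouse heart from minutes to days after coronary ligation.

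The animals were 18 male mice, 12 weeks old, of the strain written C57BL/6JR in the labels, with no allele or transgene named. In 5 groups of 3 mice a suture was tied around the left anterior descending branch of the coronary arteries to cause a myocardial infarction (MI), and the mice were killed at times from 10 min through 1 h and 6 h to 24 h or 72 h later. No release of the ligature is described. The 3 sham mice, listed as 0 h, had the same surgery under the same anaesthesia with the suture passed and left untied. Each mouse gave 1 library of poly(A)-selected RNA from left ventricular myocardium, which was infarcted in the ligated mice. The labels name cardiomyocytes as the cell type, but no separation of cells is described, and markers of several cell types were read in the libraries.

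Macrophages that clear dead cells take in large amounts of membrane lipid, which they must store, burn or hand on to lipoproteins. Trem2 encodes a surface receptor for lipids and lipoproteins. Tyrobp encodes the adaptor DAP12 that carries its signal. Spp1 encodes osteopontin, a secreted matrix protein, and Lgals3 encodes galectin-3, a sugar-binding lectin. Gpnmb encodes a transmembrane glycoprotein linked to lysosomes, and Cd63 and Cd9 encode tetraspanins of endosomal and plasma membranes. Fabp5 encodes a fatty acid carrier of the cytosol, Apoe a protein of secreted lipoproteins, and Lpl the lipase that frees fatty acids from triglyceride. In healthy heart muscle Lpl is also known as a product of cardiomyocytes, and none of the 10 genes belongs to macrophages alone.

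Promoter sequence was printed for the 4 genes in which a searched motif was found, since the results below set Spp1 beside Lgals3 and Gpnmb beside Trem2. The RefSeq promoter table, build GRCm38.p6, held 10 windows for 7 of the 10 genes. The genes without a window were Tyrobp, Fabp5 and Lpl. Each sequence runs 5′ to 3′ from 250 bases before the start of the transcript to 30 bases after it, with matched motifs in capitals.
Spp1, chr5:104434861-104435140, plus strand: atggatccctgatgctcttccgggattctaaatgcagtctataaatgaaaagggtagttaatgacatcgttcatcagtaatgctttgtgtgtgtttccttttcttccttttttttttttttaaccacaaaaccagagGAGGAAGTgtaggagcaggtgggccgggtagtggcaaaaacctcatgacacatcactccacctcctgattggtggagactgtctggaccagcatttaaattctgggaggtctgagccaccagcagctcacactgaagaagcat
Lgals3, chr14:47373610-47373889, plus strand: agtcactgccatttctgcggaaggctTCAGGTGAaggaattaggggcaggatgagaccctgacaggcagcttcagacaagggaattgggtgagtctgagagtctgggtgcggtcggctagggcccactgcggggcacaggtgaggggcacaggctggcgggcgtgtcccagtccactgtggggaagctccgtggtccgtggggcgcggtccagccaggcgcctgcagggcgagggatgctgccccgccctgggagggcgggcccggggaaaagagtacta
Gpnmb, chr6:49036268-49036547, plus strand: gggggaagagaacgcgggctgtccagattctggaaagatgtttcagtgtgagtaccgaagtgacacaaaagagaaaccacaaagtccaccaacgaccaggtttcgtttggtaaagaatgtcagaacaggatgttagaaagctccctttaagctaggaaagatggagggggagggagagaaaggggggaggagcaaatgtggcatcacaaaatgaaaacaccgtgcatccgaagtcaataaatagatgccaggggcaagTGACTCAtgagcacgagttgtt
Trem2, chr17:48346151-48346430, plus strand: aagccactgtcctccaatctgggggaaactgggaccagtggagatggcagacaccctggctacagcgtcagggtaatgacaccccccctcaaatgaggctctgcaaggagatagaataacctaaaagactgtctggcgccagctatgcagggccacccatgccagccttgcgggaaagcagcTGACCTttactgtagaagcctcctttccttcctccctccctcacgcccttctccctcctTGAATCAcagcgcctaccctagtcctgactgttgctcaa
The Spp1 window printed held GAGGAAGT, the PU.1 motif, at position -113 from the start, and the other Spp1 window of the table, chr5:104435942-104436221, held no match. The Lgals3 window held TCAGGTGA at position -224, a match to the pattern TCANGTGA with G at the N. That pattern was searched for MITF and TFE factors but admits any letter at the N. This match is not shown to be a site of those factors. Gpnmb held a match to TGANTCA, the AP-1 motif, at position 9, and Trem2 held one at position -9. Trem2 also held the reverse complement of AGGTCA, a nuclear receptor half-site, at position -68. The fifth motif searched was the E-box CACGTG, which overlaps TCANGTGA only where the N is C. All motifs were searched on both strands in the whole window of 300 bases. Among the 10 windows AP-1 matched 2, PU.1 matched 1, TCANGTGA matched 1, AGGTCA matched 1 and CACGTG matched 0. Among all 32851 windows of the table the shares with a match were 7.81% for AP-1, 3.20% for PU.1, 4.18% for TCANGTGA, 16.3% for AGGTCA and 7.15% for CACGTG. A match describes these letters and shows no binding.

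Libraries held 18.2 to 25.1 M counts. Levels are given as CPM, each count divided by the library's total in M after TMM scaling, as mean ± SD over 3 mice. The summed level of 9 macrophage markers (among them Cd68, Adgre1, Csf1r and C1qa) was 271 ± 16.8 CPM in sham, 283 ± 17.5 at 6 h, 409.5 ± 19.9 at 24 h and 2271 ± 261 at 72 h, with 4 called higher and 1 lower at 6 h, 6 higher at 24 h and 9 higher at 72 h. The 7 neutrophil markers summed to 3.03 to 4.56 CPM in the sham libraries, 101 to 752 at 6 h, 43.0 to 745 at 24 h and 59.2 to 73.5 at 72 h. Ly6g among them was at 0 in all sham libraries. At 6 h replicate 1 and at 24 h replicate 3 stood apart from their groups by these neutrophil markers, and results are given below with and without them. The 7 fibroblast markers summed to 738 ± 41.0 CPM in sham and 10999 ± 1325 at 72 h, all 7 being called higher. The 8 cardiomyocyte markers summed to 51506 ± 2483 CPM in sham, 27714 ± 5730 at 24 h and 13273 ± 2123 at 72 h. Adipocyte markers, of a further cell type known to make Lpl, Fabp5 and Apoe, summed to at most 2.49 CPM in any library. In whole tissue, fewer cells of a type and less RNA per cell cannot be told apart.

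Spp1, Lgals3, Tyrobp and Cd63 were called higher than sham at 6 h, 24 h and 72 h, Gpnmb and Trem2 at 24 h and 72 h, and Fabp5, Apoe and Cd9 at 72 h, while Lpl was called lower at 24 h and 72 h. A time without a call does not show that a gene had not yet risen: the 6 h and 24 h libraries of Cd9 also lay wholly above sham. The 6 h libraries of Trem2 did so narrowly in TMM-scaled CPM, but overlapped with sham as shares of all counts. A gene was called when its adjusted p was under 0.05 in edgeR's quasi-likelihood test with Benjamini-Hochberg adjustment over all tested genes. At 6 h against sham 4 of 10 were called, all higher, where 28.4% of all tested genes were called, 16.3% higher and 12.2% lower. At 24 h 8 were called, 6 higher and 2 lower, against 43.8% of all genes (23.7% higher and 20.2% lower). At 72 h all 10 were called, 9 higher and 1 lower, against 66.4% of all genes (34.2% higher and 32.2% lower). With so much of the transcriptome called at 72 h, the number of calls says less about these genes than the size of their changes. Their median log2 fold change against sham was 0.55 at 6 h, 1.76 at 24 h and 3.64 at 72 h, beside -0.01, 0.01 and 0.03 over all tested genes. At 6 h the 3 libraries lay wholly above the 3 of sham for 6 genes (23.1% of all genes did) and wholly below for 0 (21.2%). At 24 h 7 genes lay wholly above sham (28%) and 1 wholly below (25.7%). At 72 h 9 genes lay wholly above sham (39.3% of all genes did) and 1 wholly below (36.5%).

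**Figure D1:**
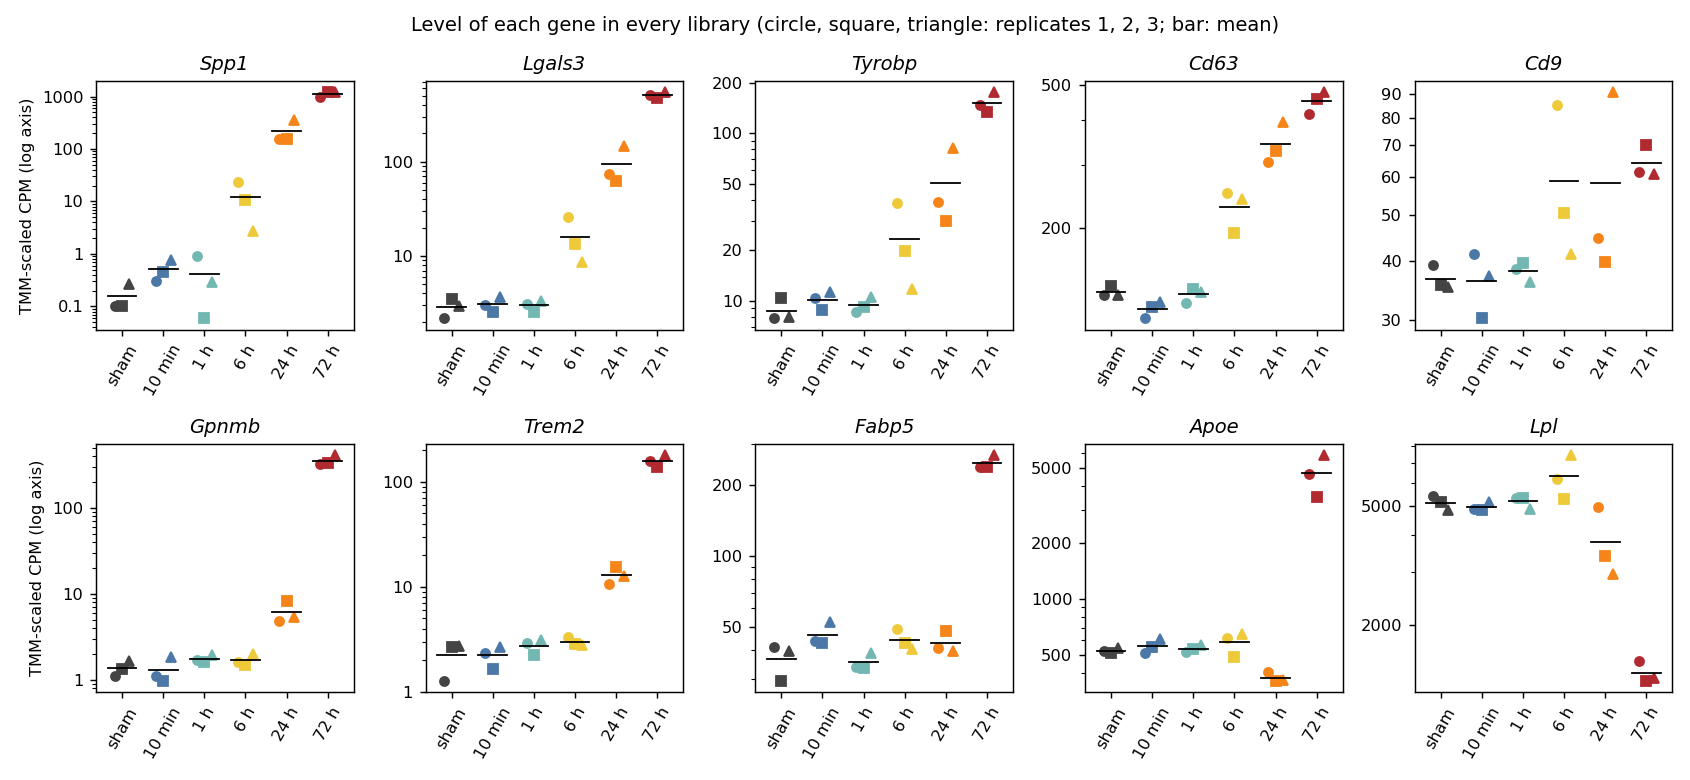
Level of each of the 10 genes in every library, as TMM-scaled CPM on a log axis, in sham and at 5 times after ligation (points: the 3 mice of a group; bars: group means). Spp1 climbs from a sham mean of 0.157 CPM to a 72 h mean of 1119, Apoe dips at 24 h before its rise, and Lpl falls.

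Nothing was called in the first hour. At 10 min against sham 0 of 10 genes were called in edgeR's test, where 0.0736% of all genes were (0.0307% higher and 0.0429% lower). At 1 h 0 were called, where 0.294% of all genes were (0.288% higher and 0.00613% lower). Between 1 h and 10 min 0 were called, where 0.307% of all genes were (0.251% higher and 0.0552% lower). DESeq2 and limma also called 0 of the 10 in each of these comparisons. At an unadjusted p under 0.05, 1 gene passed at 10 min, 0 at 1 h and 1 between the 2 times. Both were Fabp5, at 36.7 ± 6.3 CPM in sham, 46.4 ± 5.36 at 10 min and 35.5 ± 3.06 at 1 h (edgeR adjusted p = 0.561 and 0.363). At 10 min the libraries of Spp1 and Fabp5 lay wholly above sham and those of Cd63 wholly below, beside 11% and 9.07% of all genes. At 1 h 0 genes lay wholly above or below sham, beside 8.25% and 8.66% of all genes. Between 1 h and 10 min 0 lay wholly higher (7.56% of all genes) and 1, Fabp5, wholly lower (9.28%).

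Spp1 showed the largest increase of any tested gene at 72 h. It was nearly silent in sham, with 2, 2 and 6 counts in the 3 libraries, equal to 0.101, 0.104 and 0.267 CPM. At 10 min it read 0.311, 0.462 and 0.782 CPM and at 1 h 0.918, 0.0592 and 0.292 CPM. At 6 h the libraries read 23.7, 10.6 and 2.72 CPM, at 24 h 154, 158 and 363 CPM, and at 72 h 958, 1198 and 1201 CPM. From 6 h on each group lay wholly above sham and above the group before it. The log2 fold change against sham was 6.19 ± 1.01 (SE) at 6 h (edgeR adjusted p = 0.000645), 10.39 ± 0.92 at 24 h (adjusted p = 4.1e-06) and 12.70 ± 0.95 at 72 h (adjusted p = 5.56e-08). By size it ranked 70 at 6 h, 5 at 24 h and 1 at 72 h among 16311 genes. These folds rest on 10 counts in sham, and without sham replicate 3 the sham mean is 0.102 CPM in place of 0.157. Without replicate 1 at 6 h the mean at that time is 6.67 CPM in place of 12.4, and without replicate 1 at 1 h the mean there is 0.175 CPM in place of 0.423.

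Lgals3 followed the course of Spp1 at a higher starting level. Its libraries read 2.17, 3.53 and 2.93 CPM in sham, then 25.6, 13.3 and 8.57 at 6 h, 74.4, 62.1 and 148 at 24 h, and 508, 474 and 544 at 72 h. No library of 6 h, 24 h or 72 h overlapped with those of the group before. The log2 fold change against sham was 2.45 ± 0.41 (SE) at 6 h (edgeR adjusted p = 0.000677), 5.04 ± 0.42 at 24 h (adjusted p = 1.47e-06) and 7.46 ± 0.45 at 72 h (adjusted p = 4.15e-09). It stood 54th by increase at 72 h.

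In TMM-scaled CPM the receptor Trem2 and its adaptor Tyrobp both lay wholly above sham at 6 h. Tyrobp was called there and Trem2 was not, and the difference between the genes was not tested. Trem2 read 1.26, 2.64 and 2.75 CPM in sham and 3.34, 2.82 and 2.77 at 6 h. It then read 10.6, 15.4 and 12.7 CPM at 24 h and 157, 138 and 180 at 72 h. As shares of all counts of a library, without TMM scaling, the groups overlapped, at 0.000116% to 0.000264% in sham and 0.000241% to 0.000275% at 6 h. In CPM the 6 h values lay just above sham and were not called, with a log2 difference of 0.41 ± 0.25 (SE, edgeR adjusted p = 0.243). At 24 h it was 2.53 ± 0.22 (adjusted p = 5.5e-07) and at 72 h 6.15 ± 0.23 (adjusted p = 2.55e-12). The step from 24 h to 72 h, 3.62 ± 0.19 on the log2 scale (adjusted p = 2.1e-10), was larger than the step from 6 h to 24 h, 2.12 ± 0.22 (adjusted p = 6.99e-06), by value, and that difference was not tested.

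Tyrobp read 7.84, 10.3 and 7.996 CPM in sham, 38.3, 19.8 and 11.7 at 6 h, 39.1, 29.9 and 82.1 at 24 h, and 148, 133 and 175 at 72 h. The libraries of 6 h and 24 h were spread widely, and all 72 h libraries lay above them. The log2 fold change was 1.41 ± 0.41 (SE) at 6 h (edgeR adjusted p = 0.0197), 2.53 ± 0.41 at 24 h (adjusted p = 0.000306) and 4.13 ± 0.43 at 72 h (adjusted p = 1.09e-06). The 6 h call was lost without replicate 1 of that time, where the change was 0.86 (adjusted p = 0.123), and also without sham replicate 1 (adjusted p = 0.0676) or 3 (adjusted p = 0.0660) or with the 6 compared libraries alone (adjusted p = 0.0639). The 6 h and 24 h libraries overlapped, and the step between them, 1.11 ± 0.38 (adjusted p = 0.0439), was 0.57 (adjusted p = 0.245) without replicate 3 at 24 h. That call was also lost without replicate 2 (adjusted p = 0.126) or 3 (adjusted p = 0.136) at 6 h.

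Gpnmb made nearly all of its rise after 24 h. Its libraries read 1.11, 1.35 and 1.64 CPM in sham and 1.61, 1.48 and 1.97 at 6 h. At 24 h they read 4.88, 8.21 and 5.31 CPM, and at 72 h 322, 330 and 413. Sham and 6 h overlapped, with a log2 difference of 0.29 ± 0.28 (SE, edgeR adjusted p = 0.469). Against sham the log2 fold change was 2.16 ± 0.23 at 24 h (adjusted p = 2.78e-06) and 8.0 ± 0.23 at 72 h (adjusted p = 1.34e-13). The step from 24 h to 72 h alone was 5.84 ± 0.20 (adjusted p = 2.21e-12), the 22nd largest increase of all tested genes. At 24 h Gpnmb stood at 1.73% of its 72 h mean, against 8.14% for Trem2, 18.6% for Lgals3, 20.1% for Spp1 and 33% for Tyrobp. In the F test of all times together Gpnmb had the smallest p of the 16311 genes and Trem2 the seventh smallest. All 10 genes were called in that test, where 78.4% of all genes were.

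The tetraspanin Cd63 rose early and by little. It read 133 ± 4.11 CPM (SD, n = 3) in sham, 229 ± 29.99 at 6 h, 342 ± 46.3 at 24 h and 449.6 ± 32.2 at 72 h. The 3 libraries of each of these times lay above all those of the time before. The log2 fold change against sham was 0.78 ± 0.11 (SE) at 6 h (edgeR adjusted p = 6.43e-05), 1.36 ± 0.11 at 24 h (adjusted p = 2.01e-07) and 1.76 ± 0.11 at 72 h (adjusted p = 3.45e-10). Cd63 stood at 29.6% of its 72 h mean in sham and at 50.8% at 6 h.

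Cd9 had the smallest change of the 10 at 72 h. Sham libraries read 39.2, 35.6 and 35.3 CPM, 6 h 85.0, 50.4 and 41.3, 24 h 44.8, 39.7 and 90.5, and 72 h 61.6, 70.2 and 61.1. At 6 h and at 24 h 1 library exceeded every 72 h library, and these are the libraries with the most neutrophil marker RNA. The log2 difference from sham was 0.68 ± 0.28 (SE) at 6 h (edgeR adjusted p = 0.0811) and 0.67 ± 0.28 at 24 h (adjusted p = 0.0653), neither called, while DESeq2 called both (adjusted p = 0.0385 and 0.0299). Without replicate 3 at 6 h edgeR called the first (adjusted p = 0.0352), and without replicate 1 or 2 at 24 h the second (adjusted p = 0.0407 and 0.0196). Without both libraries highest in neutrophil markers, the 6 h difference was 0.32 (edgeR adjusted p = 0.0536) and the 24 h difference 0.20 (adjusted p = 0.190), neither called. At 72 h, with all libraries, the difference from sham was 0.81 ± 0.28 (adjusted p = 0.0182). That call was lost without replicate 2 at 72 h (adjusted p = 0.0561) and without sham replicate 2 (adjusted p = 0.0528) or 3 (adjusted p = 0.0533). From 24 h to 72 h the difference was 0.14 ± 0.27 (adjusted p = 0.695), and without replicate 3 at 24 h it was 0.60 and called (adjusted p = 0.0288).

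**Figure D2:**
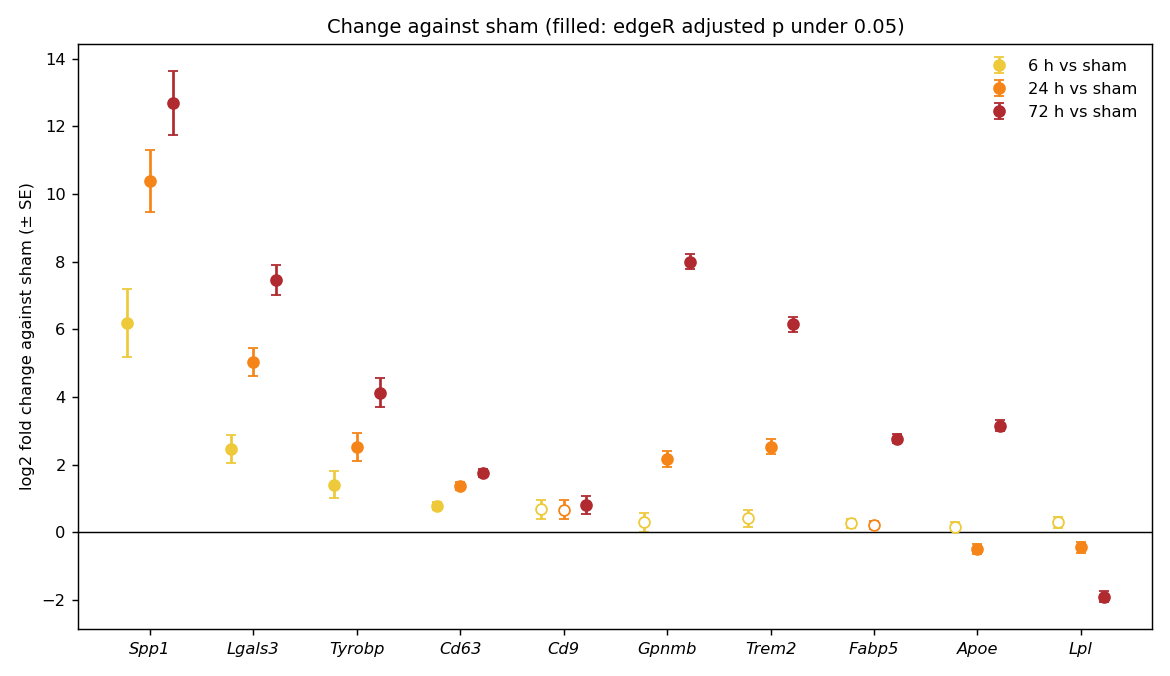
Log2 fold change of each gene against sham at 6 h, 24 h and 72 h, with its standard error (filled points: adjusted p under 0.05 in edgeR; open points: not called). Spp1, Lgals3, Tyrobp and Cd63 are filled at 6 h, and Lpl is the gene below 0 at 72 h, at -1.90.

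Apoe fell before it rose. Its libraries read 527, 511 and 544 CPM in sham, 620, 488 and 650 at 6 h, 404, 363 and 366 at 24 h, and 4674, 3512 and 5885 at 72 h. All 24 h libraries lay below all sham and 6 h libraries, and all 72 h libraries far above. The log2 difference from sham was -0.48 ± 0.15 (SE) at 24 h (edgeR adjusted p = 0.0137) and 3.15 ± 0.16 at 72 h (adjusted p = 1.99e-11). From 24 h to 72 h it rose by 3.64 ± 0.16 (adjusted p = 2.5e-11). The 24 h call depended on scaling. With libraries scaled by their totals the difference was -0.29 (adjusted p = 0.125), and limma on FPKM did not call it either (adjusted p = 0.139 and 0.142). With scaling by totals the median log2 difference from sham of all tested genes was 0.20 at 24 h and 0.61 at 72 h, in place of 0.01 and 0.03.

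Fabp5 rose between 24 h and 72 h. It read 36.7 ± 6.3 CPM (SD, n = 3) in sham, 44.1 ± 4.61 at 6 h, 42.7 ± 4.59 at 24 h, and 239.6, 239.7 and 269 CPM in the 72 h libraries. All libraries up to 24 h lay between 29.5 and 52.5 CPM. The log2 difference from sham was 0.22 ± 0.13 (SE) at 24 h (edgeR adjusted p = 0.169) and 2.76 ± 0.13 at 72 h (adjusted p = 9.39e-12). With libraries scaled by their totals the 24 h difference was 0.42 and was called (adjusted p = 0.0207).

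Lpl went the other way. It read 5416, 5186 and 4854 CPM in sham, 6199, 5290 and 7439 at 6 h, 4980, 3408 and 2962 at 24 h, and 1517, 1295 and 1323 at 72 h. At 24 h replicate 1 still lay within the sham range, and at 72 h all libraries lay below it. The log2 difference from sham was 0.29 ± 0.16 (SE) at 6 h (edgeR adjusted p = 0.188), -0.45 ± 0.16 at 24 h (adjusted p = 0.0328) and -1.90 ± 0.17 at 72 h (adjusted p = 1.61e-08). From 24 h to 72 h it fell by 1.46 ± 0.17 (adjusted p = 1.02e-06). The 24 h call was lost with scaling by library totals (-0.26, adjusted p = 0.152), with the 6 compared libraries alone (-0.44, adjusted p = 0.126), without replicate 2 (-0.38, adjusted p = 0.110) or 3 (-0.30, adjusted p = 0.154) at 24 h, and without sham replicate 1 (adjusted p = 0.0987) or 2 (adjusted p = 0.0747). The summed cardiomyocyte markers were lower at the same times, with 6 of 8 called lower at 24 h and 8 of 8 at 72 h, at a median log2 difference of -0.83 and -1.84. Their part in the fall of Lpl was not tested.

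Between neighbouring times the calls fell as follows. From 1 h to 6 h 4 of the 10 genes were called, all higher (24.5% of all genes were called, with 14.5% higher and 10% lower), and 6 lay wholly higher (21.2%; 17.7% of all genes lay wholly lower). Of these calls that of Tyrobp, 1.31 on the log2 scale (edgeR adjusted p = 0.0326), was lost without any 1 library of 1 h or without replicate 1 at 6 h (0.75, adjusted p = 0.192). From 6 h to 24 h 8 were called, 6 higher and 2 lower (27.8%, with 14.2% higher and 13.7% lower), and from 24 h to 72 h 9 were called, 8 higher and 1 lower (50.5%, with 24.4% higher and 26.1% lower). Wholly higher libraries were found for 5 genes and wholly lower ones for 2 from 6 h to 24 h (17.2% and 15.4% of all genes), and for 8 and 1 from 24 h to 72 h (27.5% and 26.5%). The 2 that fell from 6 h to 24 h were Apoe, by 0.63 ± 0.15 (SE, edgeR adjusted p = 0.00425), and Lpl, by 0.74 ± 0.16 (adjusted p = 0.00284). The Apoe call was lost in both limma fits on FPKM (-0.32, adjusted p = 0.105 and 0.109) and with libraries scaled by their totals (-0.33, adjusted p = 0.0849). With the 6 compared libraries alone, the count from 6 h to 24 h was 4, and the share of all genes called in that fit is not given here. With libraries scaled by their totals the 24 h calls against sham were 8 higher and 0 lower in place of 6 and 2, and from 6 h to 24 h they were 6 and 1 in place of 6 and 2. The calls of all 16311 genes moved the same way, to 5558 higher and 1805 lower at 24 h in place of 3860 and 3289, and to 6052 and 828 from 6 h to 24 h in place of 2311 and 2230. Comparisons with sham share its 3 libraries, and neighbouring steps share a group.

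The spread within the 6 h and 24 h groups separated the genes. At 6 h replicate 1, with 752 CPM of neutrophil markers, was highest and replicate 3, with 101, lowest for 6 of the 10 genes: Spp1, Lgals3, Tyrobp, Cd9, Trem2 and Fabp5. The ratio of highest to lowest library was 8.73 for Spp1, 3.27 for Tyrobp, 2.99 for Lgals3 and 2.06 for Cd9. It was at most 1.41 for the other 6, the highest being Lpl. At 24 h replicate 3, with 745 CPM of neutrophil markers, was highest for Spp1, Lgals3, Tyrobp, Cd63 and Cd9. Replicate 2, with 43.0 CPM, was highest for Gpnmb, Trem2 and Fabp5. The highest to lowest ratio at 24 h was 2.75 for Tyrobp, 2.38 for Lgals3, 2.36 for Spp1 and 2.28 for Cd9. Macrophage markers differed little between these libraries, at 263.5 to 296.6 CPM at 6 h and 390 to 429 CPM at 24 h. Cardiomyocyte markers in replicates 1, 2 and 3 summed to 42822, 44550 and 54434 CPM at 6 h and 32044, 29883 and 21217 at 24 h. Platelet markers summed to 41.8, 9.09 and 8.79 CPM at 6 h and 14.0, 6.23 and 32.9 at 24 h. The high-neutrophil libraries were thus also lowest in cardiomyocyte and highest in platelet markers. With both high-neutrophil libraries left out, 4 genes were still called at 6 h and 7 at 24 h, the loss being Lpl. The log2 change of Tyrobp at 6 h was then 0.86 (edgeR adjusted p = 0.0066), that of Lgals3 1.93 and that of Spp1 5.33. The share of all tested genes called in that fit is not given here. With replicate 1 at 6 h alone left out, the Tyrobp change was also 0.86 and was not called (edgeR adjusted p = 0.123). The 24 h library enters the comparison of 6 h with sham only through the spread shared by all groups. The parts of neutrophil, platelet and cardiomyocyte RNA in these levels cannot be told apart here and were not tested.

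**Figure D3:**
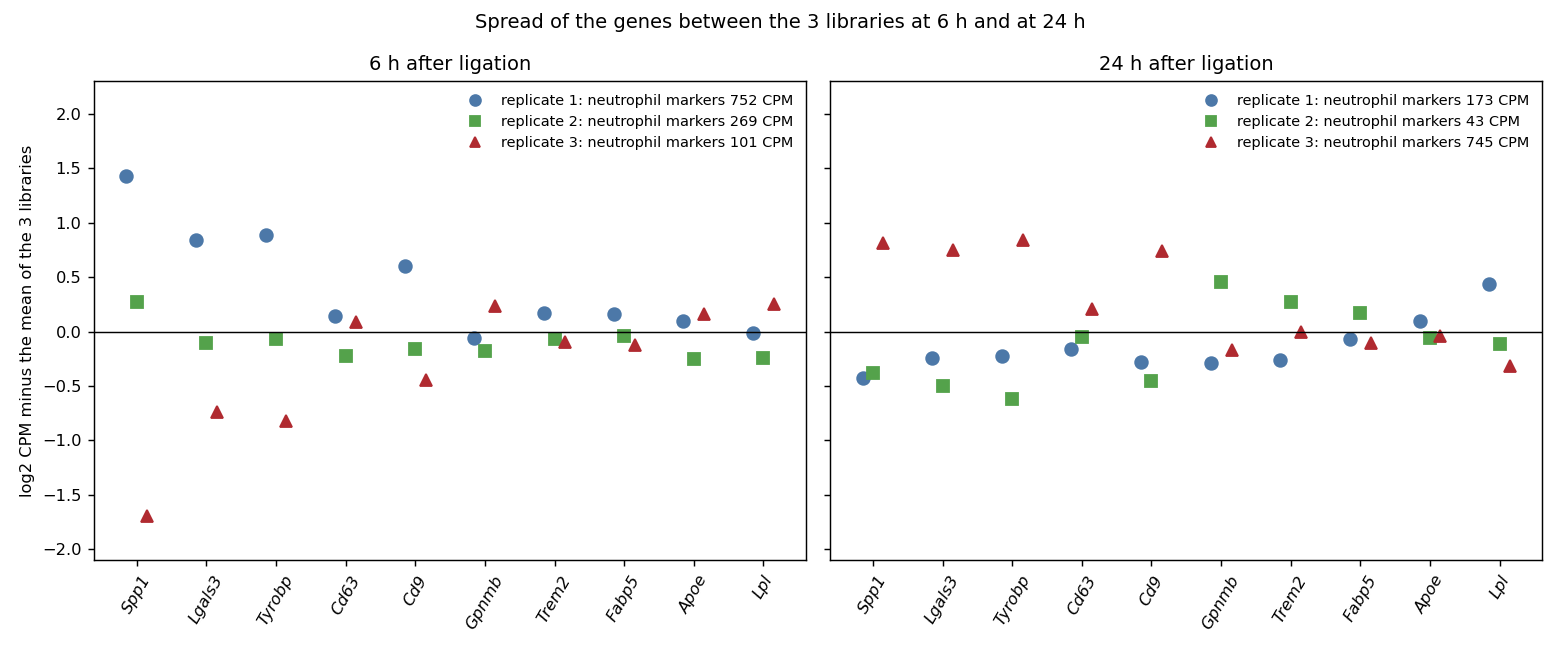
Level of each gene in the 3 libraries at 6 h (left) and at 24 h (right), as log2 CPM minus the mean of the 3 libraries, with the summed neutrophil marker level of each library in the key. Replicate 1 at 6 h and replicate 3 at 24 h, with 752 and 745 CPM of neutrophil markers, lie highest for Spp1, Lgals3, Tyrobp and Cd9.

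Set against the macrophage markers, the genes fell into 3 kinds of course. For each library the CPM of a gene was divided by the summed CPM of the 9 markers. From 24 h to 72 h this ratio rose without overlap for Gpnmb, from 0.0149 ± 0.00368 to 0.157 ± 0.0197 (SD, n = 3), for Trem2, from 0.0314 ± 0.00430 to 0.0698 ± 0.00422, and for Apoe, from 0.924 ± 0.0993 to 2.05 ± 0.326. Between geometric means, as for the other folds of a ratio here, the Gpnmb ratio rose 10.7-fold. For Apoe the 72 h ratio was near the sham ratio of 1.95 ± 0.113 and overlapped with it, and the 24 h ratio was the one that stood apart. The ratio overlapped between 24 h and 72 h for Spp1 (0.5495 ± 0.292 and 0.4996 ± 0.105), Lgals3 (0.232 ± 0.114 and 0.225 ± 0.0146), Tyrobp (0.123 ± 0.0685 and 0.0671 ± 0.00506) and Fabp5 (0.104 ± 0.00760 and 0.111 ± 0.0109). Fabp5 also overlapped with its sham ratio of 0.136 ± 0.0273 at 24 h and 72 h. The markers themselves rose unequally from sham to 72 h, Cd68 from 6.06 ± 1.25 to 167 ± 8.82 CPM and Csf1r from 39.0 ± 1.74 to 202 ± 21.1. The overlap of Apoe and Fabp5 with their sham ratios was read against the sum only and depends on the markers chosen. The ratio was lower at 72 h than at 24 h for Lpl, Cd63 and Cd9. For Spp1 and Lgals3 most of the rise in the ratio had come by 24 h, when it was 969 and 20.6 times the sham value. The number of genes with a wholly higher ratio at 72 h, 3 with the summed markers, was 5 with Csf1r alone as the denominator. It was also 5 without replicate 3 at 24 h, when Spp1 and Lgals3 joined the 3. No test was made of a ratio.

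**Figure D4:**
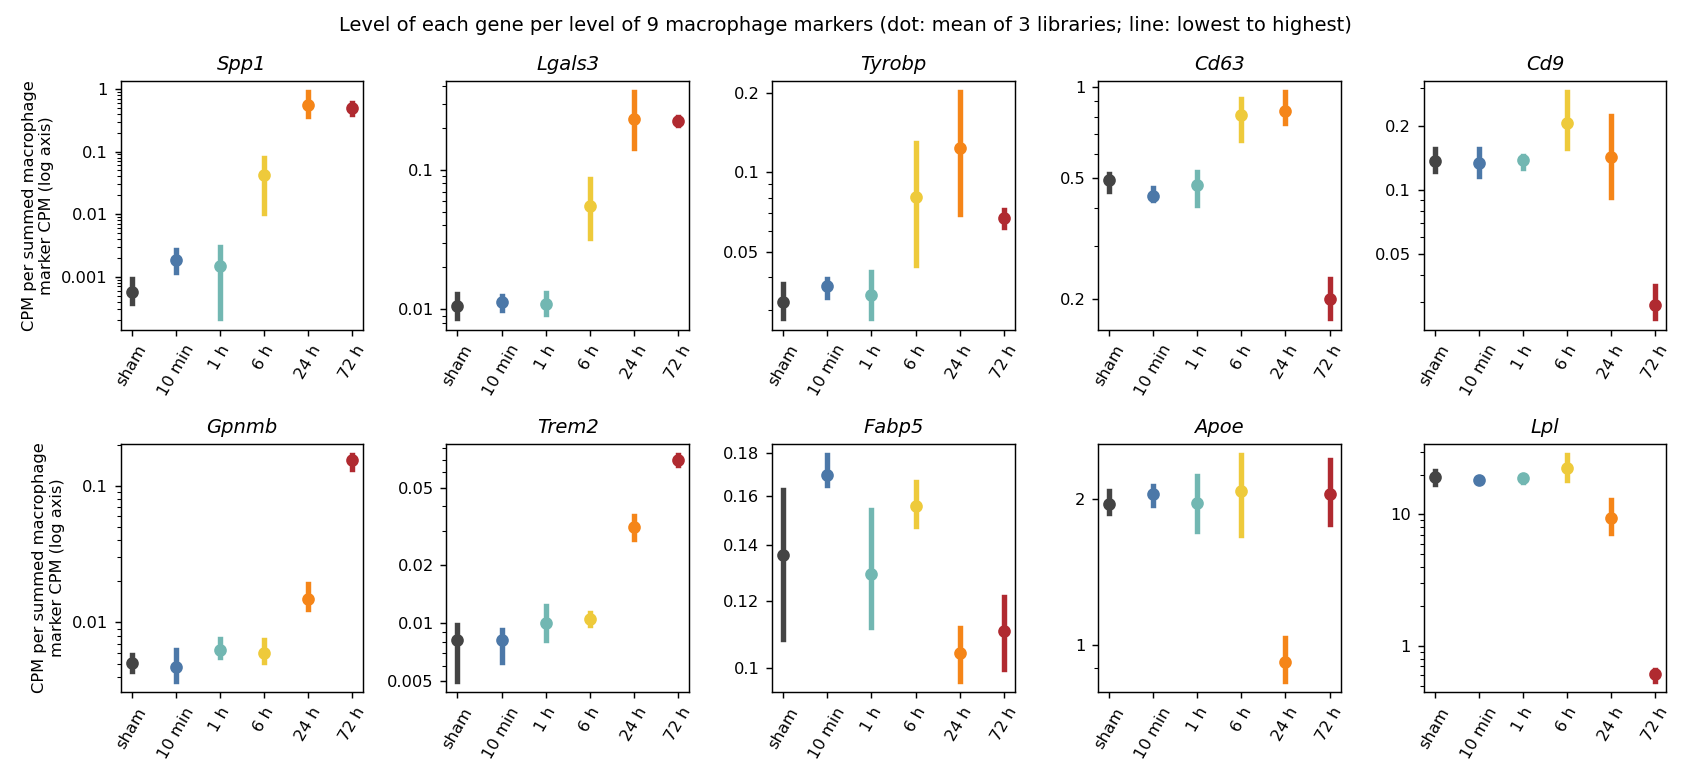
CPM of each gene divided by the summed CPM of 9 macrophage markers, on a log axis, in sham and at 5 times after ligation (dots: mean of 3 libraries; lines: lowest to highest library). Between 24 h and 72 h the ratio, as a geometric mean, rises for Gpnmb (10.7-fold), Trem2 (2.24-fold) and Apoe (2.20-fold) and falls for Lpl, Cd63 and Cd9.

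Per length of annotated exons the order of the genes was rebuilt over the 3 days. FPKM are fragments per kilobase of this length and M fragments, as deposited. The length is that of all annotated exons of a gene merged, from 667 bases for Tyrobp to 10478 for Lpl. A gene read mainly from a shorter transcript is thus placed too low, and the transcripts present were not tested. Sham hearts held most of Lpl, at 455 ± 15.8 FPKM (SD, n = 3), then Apoe at 229 ± 13.8, Cd63 at 33.5 ± 0.817 and Cd9 at 16.6 ± 0.886. Tyrobp at 12.1 ± 1.72 and Fabp5 at 9.56 ± 1.78 followed. Lgals3 (1.43 ± 0.332 FPKM), Trem2 (0.417 ± 0.161), Gpnmb (0.195 ± 0.0432) and Spp1 (0.0894 ± 0.0568) came last. Trem2 and Gpnmb overlapped, and the other neighbours in this order did not. At 72 h the order was Apoe (3061 ± 838 FPKM), Spp1 (947 ± 138), Lgals3 (381 ± 34.0), Tyrobp (318 ± 52.0), Lpl (183 ± 12.6), Cd63 (170 ± 16.6), Fabp5 (97.4 ± 9.24), Gpnmb (76.0 ± 12.98), Trem2 (44.6 ± 6.92) and Cd9 (43.7 ± 3.48). The pairs Lgals3 and Tyrobp, Lpl and Cd63, and Trem2 and Cd9 overlapped. Spp1 thus moved from last to second of the 10, and among all 16311 tested genes from place 15202 by mean FPKM to place 31. Apoe moved from place 209 to place 10, Lgals3 from 10051 to 116 and Lpl from 101 to 307. The 10 genes took 0.547% ± 0.0157 of all counts in sham and 1.27% ± 0.215 at 72 h. Mitochondrial genes took 23.8% to 26.1% of counts in sham, 17.7% to 24.0% at 24 h and 8.41% to 10.5% at 72 h, and their part in this share and in the FPKM levels was not tested.

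Likeness between the 10 genes was read over the 18 libraries. Pearson's r of log2 CPM was 0.987 for Tyrobp and Lgals3, 0.986 for Gpnmb and Trem2, 0.984 for Spp1 and Lgals3 and 0.963 for Fabp5 and Apoe. The receptor and its adaptor, Trem2 and Tyrobp, reached 0.933. Lpl ran against Gpnmb at -0.957, and Cd9 and Apoe had the lowest value between 2 rising genes, 0.408. These values describe differences between the same 6 groups and carry no test.

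The genes closest to each of the 10 by the same measure were taken among tested genes with a symbol. The 10 themselves, predicted genes, clone names and pseudogenes were left out of this search. Spp1 was closest to Adam12, a metalloprotease (r = 0.988), and then to Ccr2, the chemokine receptor of recruited monocytes (0.987). Lgals3 was closest to Fcer1g, an adaptor of Fc receptors (0.992), and then to the phospholipase Pla2g4a (0.990). Tyrobp was closest to Inpp5d, which encodes the phosphatase SHIP1 (0.992), and then to Serp1 (0.991). Gpnmb was closest to St18, which reached 0.522 CPM at 72 h and had 0 in sham (0.995), and then to the lysosomal gene Grn (0.994). Trem2 was closest to Clec4a1, a lectin receptor (0.989), and Cthrc1, a secreted matrix gene (0.986). Apoe was closest to Psap, the precursor of lysosomal saposins (0.983), and then to Drd4, which had 0 in sham and 0.4905 CPM at 72 h (0.975). At 24 h St18 read 0.0552 CPM and Drd4 0, so the r values of St18 and Drd4 rest largely on the 72 h libraries. Fabp5 was closest to Nusap1, a gene of the mitotic spindle, and Marcks (both 0.983). Lpl was closest to the mitochondrial genes Trap1 (0.990) and Idh3g (0.989). Cd63 was closest to Clic1 (0.987) and Sprr1a (0.986). Cd9 was closest to Rbms1 (0.964) and Tle3 (0.947).

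Genes that act with these 10 were then counted, in lists drawn up from general knowledge. The partners of TREM2 and TYROBP signalling (Hcst, Trem1, Syk, Plcg2, Inpp5d, Btk, Vav1, Pik3ap1, Card9, Fcer1g, Cd33 and Ptpn6) were called higher in 10 of 12 at 6 h, 12 of 12 at 24 h and 12 of 12 at 72 h, with a median log2 fold change of 1.45, 2.24 and 3.12. Over all tested genes 34.2% were called higher and 32.2% lower at 72 h, 23.7% and 20.2% at 24 h, and 16.3% and 12.2% at 6 h, and the counts of each list are to be read against these shares. With libraries scaled by their totals the calls of all 16311 genes themselves moved, to 9472 higher and 2382 lower at 72 h in place of 5572 and 5259. Under that scaling 7 of the 12 partners were called higher at 6 h and 12 at 24 h and at 72 h. All genes then gave 1914 higher and 2802 lower at 6 h in place of 2653 and 1986. The largest increases of this list at 72 h were Trem1, a receptor of neutrophils and monocytes, and Pik3ap1, an adaptor for PI3 kinase. Trem1 had at most 1 count in a sham library and was at least 22.9-fold higher at 72 h, measured against 3 counts per library (edgeR adjusted p = 0.0103), a call lost in limma on log2(FPKM + 1) (adjusted p = 0.0542). Its level was highest earlier, at 16.7 ± 17.6 CPM at 6 h and 17.1 ± 21.5 at 24 h, and fell to 6.76 CPM without replicate 1 at 6 h and to 4.76 without replicate 3 at 24 h. Pik3ap1 read 2.02 ± 0.709 CPM in sham and 44.9 ± 3.17 at 72 h, a log2 fold change of 4.47 ± 0.48 (SE, adjusted p = 1.23e-06).

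Lipid uptake, storage and efflux genes changed in both directions. Of 20 tested, 12 were called higher and 4 lower at 72 h, with a median log2 fold change of 1.19, beside 34.2% and 32.2% of all genes. The other 2 of the list, Apoc1 and Apoc2, had too few counts. Msr1, a scavenger receptor, rose by 4.57 ± 0.35 (SE, edgeR adjusted p = 2.05e-08) on the log2 scale, from 3.06 ± 0.289 CPM to 72.9 ± 14.3. Soat1, which esterifies cholesterol for storage, rose by 3.82 ± 0.26 (adjusted p = 2.3e-09). Vldlr, a lipoprotein receptor, fell by 1.82 ± 0.17 (adjusted p = 5.28e-08), from 233 ± 18.04 CPM to 66.0 ± 6.13. Scaling by totals instead, 16 were higher and 2 lower, where 9472 of all 16311 genes were higher and 2382 lower.

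Of 9 osteopontin receptor genes, 7 were called higher and 1 lower at 72 h, with a median of 1.37 on the log2 scale, beside 34.2% and 32.2% of all genes. The integrin gene Itga4 rose by 3.40 ± 0.28 (SE, edgeR adjusted p = 7.85e-09). Cd44 rose by 3.25 ± 0.49 (adjusted p = 4.55e-05) and read 7.02 ± 0.911 CPM in sham, 52.5 ± 33.0 at 6 h, 67.6 ± 44.0 at 24 h and 67.0 ± 12.3 at 72 h. Leaving out replicate 1 brought Cd44 at 6 h to 33.6 CPM, and leaving out replicate 3 brought it at 24 h to 42.4. Itga8 fell by 0.83 ± 0.24 (adjusted p = 0.00463), and with libraries scaled by their totals it was not called (-0.25, adjusted p = 0.351), which left 8 of the list higher and 0 lower, where 9472 of all 16311 genes were higher.

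The genes that handle lipoprotein lipase were 3 higher and 2 lower of 6 tested at 72 h, with a median of 0.33, near the shares of all genes (34.2% and 32.2%) for so short a list. Under scaling by totals they were 4 higher and 1 lower, where 9472 of all 16311 genes were higher. Angptl4, which inhibits the enzyme, read 1.46 ± 0.366 CPM in sham, 118 ± 47.2 at 6 h, 69.7 ± 73.1 at 24 h and 43.0 ± 6.71 at 72 h, a log2 fold change at 72 h of 4.86 ± 1.14 (SE, edgeR adjusted p = 0.0021). Its 24 h mean was 27.6 CPM without replicate 3. Gpihbp1, which carries the enzyme to the capillary wall, read 102 ± 7.76 CPM in sham, 188 ± 25.7 at 6 h and 48.1 ± 3.37 at 72 h, where it had fallen by 1.09 ± 0.12 (adjusted p = 2.41e-07). Sdc4 rose by 0.99 ± 0.38 (adjusted p = 0.0335) at 72 h, a call lost without any 1 of the 72 h libraries (adjusted p = 0.0608 to 0.0692), without sham replicate 2 or 3 (0.109 and 0.0913) and with no filter on low counts (0.0666).

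Among other galectins, fatty acid binding proteins and tetraspanins, 9 of 17 were called higher and 6 lower at 72 h, with a median of 0.46, beside 34.2% higher and 32.2% lower of all genes. Under scaling by totals they were 12 and 3, where 9472 of all 16311 genes were higher. The tetraspanin genes Cd53 and Cd37, both of leukocytes, rose by 4.19 ± 0.54 (SE, edgeR adjusted p = 1.26e-05) and 3.31 ± 0.37 (adjusted p = 1.05e-06). Lgals4, a galectin better known from the gut, fell by 2.63 ± 0.41 (adjusted p = 6.24e-05), from 36.4 ± 6.23 CPM to 5.87 ± 1.46.

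The last list held 27 other genes known from lipid-associated macrophages, of which Cd68 is also a macrophage marker above. At 72 h 22 were called higher and 2 lower, with a median log2 fold change of 3.11, and at 24 h 16 were higher and 3 lower, with a median of 1.69. Arg1, arginase 1, read 0.0934 ± 0.0730 CPM in sham, 265 ± 295 at 24 h and 100.04 ± 12.3 at 72 h (log2 fold change at 72 h 9.92 ± 1.34 SE, edgeR adjusted p = 2.06e-05). Leaving out replicate 3 brought Arg1 at 24 h to 96.2 CPM, and leaving out sham replicate 3 brought its sham mean to 0.0512. Cd5l, a secreted macrophage protein, had at most 2 counts in a sham library. At 72 h it read 17.6 ± 1.498 CPM, which is at least 120-fold higher when set against 3 counts per library (adjusted p = 1.55e-07). Ank, which exports pyrophosphate, fell by 1.503 ± 0.19 (adjusted p = 1.71e-06). Over all 91 tested genes of the 6 lists, 54 were called higher and 11 lower at 24 h, and 65 higher and 15 lower at 72 h, beside 23.7% and 20.2% of all genes at 24 h and 34.2% and 32.2% at 72 h. With libraries scaled by their totals these were 67 and 8 at 24 h and 77 and 8 at 72 h, in a scaling that gives 5558 higher and 1805 lower of all genes at 24 h and 9472 and 2382 at 72 h.

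**Figure D5:**
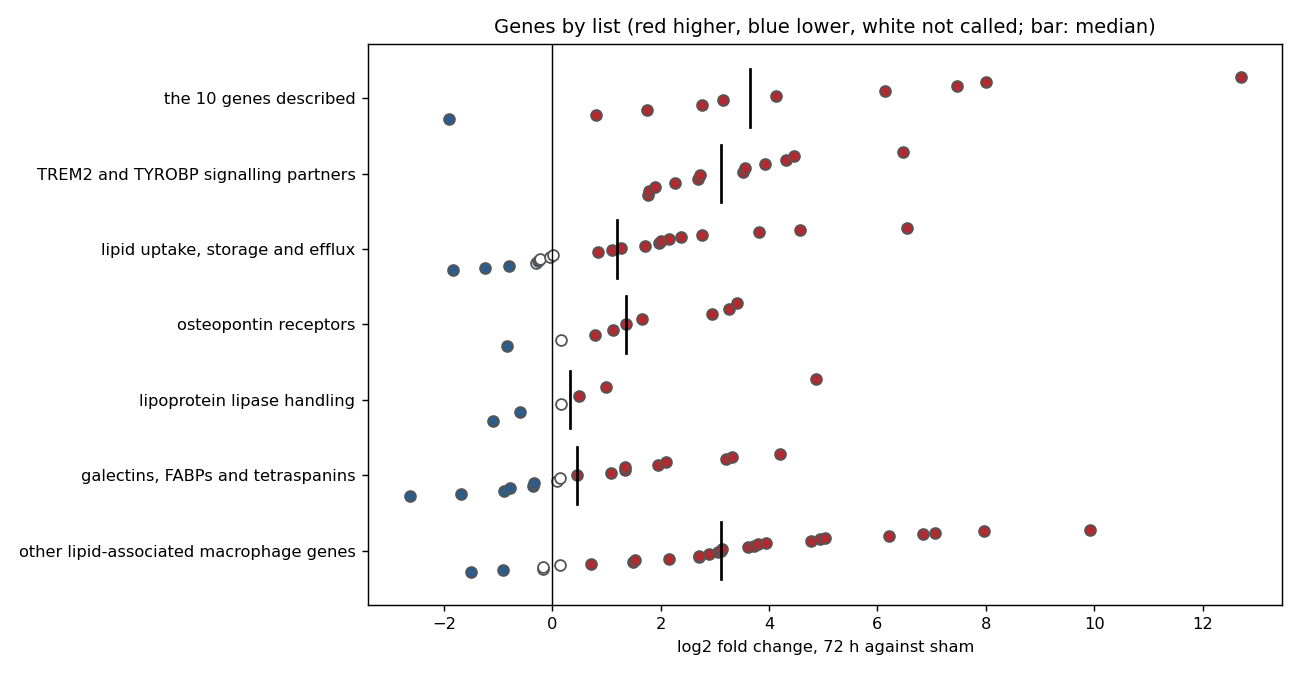
Log2 fold change at 72 h against sham of the 10 genes and of the genes of 6 related lists (points: single genes, red called higher, blue called lower, white not called; bars: medians). The median is 3.64 for the 10 genes, 3.12 for the signalling partners and 0.33 for the lipoprotein lipase genes.

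The coordinates of the 10 genes, in GENCODE M21 on GRCm38, place all as protein-coding genes. Spp1 lies at chr5:104435118-104441050 on the plus strand, Gpnmb at chr6:49036546-49070929 (plus), Trem2 at chr17:48346401-48354147 (plus) and Tyrobp at chr7:30413760-30417585 (plus). Fabp5 lies at chr3:10012548-10016607 (plus), Lgals3 at chr14:47367751-47386160 (plus), Apoe at chr7:19696109-19699188 (minus), Lpl at chr8:68880491-68907448 (plus), Cd63 at chr10:128900989-128912822 (plus) and Cd9 at chr6:125460266-125494791 (minus). Spp1 shares 309 exon bases with the gene model Gm42793 on its own strand, which had 55 counts over all libraries. Cd9 overlaps the opposite-strand genes Gm28809 and Gm26728, with 100 and 7 counts in all, and whether the counting used strand is not given in the sources used here. A processed pseudogene copy of Cd63 took 8089 counts over all libraries, and how reads were divided between the gene and its copy is not given in the sources used here.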

How the data were processed

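RNA was sequenced from left ventricular myocardium of 18 mice, 3 in each of 6 groups assigned by the sample titles. Per the submitters' processing notes, cutadapt 1.18, HISAT2 2.1.0, featureCounts and build mm10 were used. The annotation and strand setting are not given in the sources used here, and the labels give no batch. The authors deposited whole-number read counts per gene and FPKM values. The gene lengths behind the FPKM equalled those of GENCODE M21 for 91.9% of genes, so its coordinates and symbols were used. For the 6 h group, the FPKM named replicate 2 match the counts named replicate 3 and the reverse, so FPKM serve only for group levels.

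Counts were analysed with edgeR 4.0.16 (filterByExpr, TMM, glmQLFit robust, glmQLFTest) in R 4.3.3, with 1 mean per group over all 18 libraries and Benjamini-Hochberg adjustment over 16311 tested genes; 14272 genes were filtered out. The biological coefficient of variation was 0.149. The script was tested on simulated data. Comparisons were made against sham and against the preceding time. Standard errors are the fold change divided by the root of F. Alternatives were DESeq2 1.42.0, limma 3.58.1 on log2(FPKM + 1) and log2(FPKM + 0.1), other scalings and filters, a replicate block, the 6 compared libraries alone, and leaving out libraries. The amplified reads carry no molecular identifiers, so counts are not all separate molecules. Each library is from 1 mouse, so p-values measure spread between mice.

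The 10 genes, the lists, the tests and the markers were chosen with earlier results of these data known. Named genes are the 10 and, from each list, the 2 largest increases and the largest decrease among genes called at 72 h with a mean of at least 50 counts. For each of the 10, the 2 genes with the highest Pearson's r are also named, among the genes allowed in that search. The macrophage markers are named only in part, since 1 item is not reported here.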

Additional observations from a re-analysis of the deposited data

Results flagged for a closer look

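Apoe changed in opposite directions at 2 times against the same sham libraries. It was lower at 24 h, at a log2 difference of -0.48, and higher at 72 h, at 3.15, and the difference between the times was 3.64 on the log2 scale (edgeR adjusted p = 2.5e-11), with all 3 libraries of 72 h above all 3 of 24 h. The direction at 24 h was lower in all 3 libraries than in any sham library, and the call at that time was lost with libraries scaled by their totals. The summed macrophage markers were 271 ± 16.8 CPM in sham, 409.5 ± 19.9 at 24 h and 2271 ± 261 at 72 h, and the cardiomyocyte and fibroblast markers also moved over these times. Their part in the course of Apoe was not tested.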

How the results depend on the processing

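Of 715 values of the 43 called results for the 10 genes under the alternatives, 677 kept their direction and call, 38 kept the direction and lost the call, and 0 reversed. Of 763 values of the 47 results not called, 16 became called. The count of the 10 genes called from 6 h to 24 h, 8, was 4 with the 6 compared libraries alone, where Spp1, Tyrobp, Lpl and Cd63 were lost. In that fit these 6 libraries set the spread in place of all 18, and the reason for the losses was not tested. For this fit, the fits that leave out libraries and the replicate block, the share of all tested genes called is not given here. Whether a change in these counts is particular to the 10 genes thus cannot be read from them. The count of genes with a wholly higher ratio to macrophage markers at 72 h than at 24 h, 3, was 5 with Csf1r alone as denominator, and 3 to 5 when 1 library was left out. The share of all tested genes with such a ratio is not given here. Leaving out 1 library gave counts of 3 to 5 at 6 h, 7 to 9 at 24 h and 9 to 10 at 72 h against sham. Requiring at least 10 counts in every library removed Spp1, which then had no value. Libraries of the same replicate number showed no clear shared deviation (median r 0.035 over 45 pairs of libraries, 4 of them over 0.1, and 6 of 18 libraries closest to their own number). No pairing of mice by number was thus seen, though a weak one would not show in these values. With the replicate block the counts against sham were 4 at 6 h, 8 at 24 h and 10 at 72 h, as without it, and 7 from 6 h to 24 h, where Tyrobp was not called (log2 change 1.07, edgeR adjusted p = 0.0706). On log2(FPKM + 1), whose pseudocount shrinks low genes, log2 changes were smaller, such as 2.45 for Spp1 at 6 h and 0.74 for Gpnmb at 24 h. Leaving out together the libraries with the most neutrophil markers at 6 h and 24 h was chosen after seeing the data. Sham levels of Spp1 rest on 2 to 6 counts a library, which limits the precision of its folds.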
